A study of Mus musculus with 6 samples.

Results

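The 10 genes described here encode the transcription factors of the NF-kappaB family (Nfkb1, Nfkb2, Rela, Relb and Rel) and proteins that restrain or tune them (Nfkbia, Nfkbie, Nfkbiz, Tnfaip3 and Bcl3). They were taken by symbol from a table of 22183 genes, and all 10 were found and passed the filter on low counts, whose minimum each reached in all 6 libraries. The table comes from poly(A)-selected RNA of mouse kidney, with 3 libraries from mice that received a plasmid for Wnt1, labelled as overexpressing Wnt1, and 3 from mice that received the empty vector pcDNA3, labelled as control. Both groups therefore carry a plasmid. The labels give no strain, age, sex, injury procedure, promoter on the plasmid or time after delivery, and nothing in them ties a library to its own animal. The p-values therefore describe the spread among these 6 libraries, and that spread could be technical. The series title names Wnt, beta-catenin and ATF3 signalling in kidney injury and mitophagy.

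NF-kappaB factors sit in the cytoplasm of resting cells, bound by inhibitors of the IkappaB family. In the canonical arm, signals from cytokine and Toll-like receptors activate the IKK complex, IkappaB proteins are degraded, and dimers such as Rela with the Nfkb1 product enter the nucleus. In the noncanonical arm, the kinase encoded by Map3k14 leads to processing of the Nfkb2 precursor, which then pairs with Relb. Many of the genes for inhibitors and for the precursors are themselves transcribed by NF-kappaB, which closes feedback loops, and in the kidney the pathway is known for its part in tubular and inflammatory responses to injury.

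Depth was similar in all libraries, at 23585040 to 27218091 expected counts with Wnt1 and 24753191 to 26072455 with pcDNA3. The Wnt1 transcript itself had 0, 1 and 0 expected counts in Wnt1 replicates 1, 2 and 3 and 0 in each pcDNA3 library, so it did not check the labels, and Ctnnb1, the gene for beta-catenin, had a log2 fold change of 0.04 ± 0.12. Markers of the proximal tubule, the defining cells of the kidney cortex, were abundant in every library, with summed levels of 7941 to 11701 CPM with Wnt1 and 40703 to 49475 CPM with pcDNA3 (CPM, counts scaled to library size times its trimmed-mean, TMM, factor). Wnt1 replicate 3 and pcDNA3 replicate 3 stood apart from the other 4 libraries on the second principal component, which held 14.7% of the variance. Over all genes, edgeR's quasi-likelihood test called 22.4% of 14432 tested genes higher and 18.7% lower with Wnt1 at an adjusted p under 0.05, and the median log2 fold change was 0.05.

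Promoter sequences (300 bases, 250 before and 50 after the start site, from RefSeq on GRCm38.p6) were at hand for 7 of the 10 genes, in 10 windows because Nfkb2 has 3 start sites and Tnfaip3 has 2. They were searched on both strands for the degenerate 10-base kappaB consensus. Of the 7 genes, 6 held a match, against 9.55% of all 27025 genes with a window. The sequences of 5 genes are shown because they span the smallest and some of the largest changes described below. Capitals mark every match, and each line reads 5′ to 3′ on the strand of the gene.
Nfkb2 (chr19:46304487-46304786, plus strand): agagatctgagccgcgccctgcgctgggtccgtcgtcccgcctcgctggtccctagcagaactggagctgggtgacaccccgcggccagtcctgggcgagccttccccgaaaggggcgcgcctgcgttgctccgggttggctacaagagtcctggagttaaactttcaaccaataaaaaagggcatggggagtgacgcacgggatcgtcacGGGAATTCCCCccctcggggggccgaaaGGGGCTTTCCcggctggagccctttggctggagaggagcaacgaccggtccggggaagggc
Nfkbia (chr12:55492598-55492897, minus strand): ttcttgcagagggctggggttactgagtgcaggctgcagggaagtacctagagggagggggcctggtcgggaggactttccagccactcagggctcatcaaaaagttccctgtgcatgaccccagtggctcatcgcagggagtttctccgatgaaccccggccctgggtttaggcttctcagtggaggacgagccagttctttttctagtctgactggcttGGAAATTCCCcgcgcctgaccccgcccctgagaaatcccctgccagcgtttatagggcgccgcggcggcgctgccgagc
Tnfaip3 (chr10:19015361-19015660, minus strand): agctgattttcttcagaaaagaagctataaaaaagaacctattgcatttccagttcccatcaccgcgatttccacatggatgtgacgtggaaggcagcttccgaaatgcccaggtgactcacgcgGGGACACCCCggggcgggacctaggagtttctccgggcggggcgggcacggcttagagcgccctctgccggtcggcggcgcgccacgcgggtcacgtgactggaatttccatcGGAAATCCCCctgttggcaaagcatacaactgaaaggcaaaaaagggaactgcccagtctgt
Bcl3 (chr7:19822706-19823005, minus strand): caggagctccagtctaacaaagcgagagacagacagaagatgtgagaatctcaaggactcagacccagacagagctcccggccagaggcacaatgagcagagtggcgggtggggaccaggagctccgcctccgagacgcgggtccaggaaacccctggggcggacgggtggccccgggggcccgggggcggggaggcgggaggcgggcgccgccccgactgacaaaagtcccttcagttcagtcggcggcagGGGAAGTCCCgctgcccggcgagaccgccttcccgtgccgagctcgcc
Rela (chr19:5637291-5637590, plus strand): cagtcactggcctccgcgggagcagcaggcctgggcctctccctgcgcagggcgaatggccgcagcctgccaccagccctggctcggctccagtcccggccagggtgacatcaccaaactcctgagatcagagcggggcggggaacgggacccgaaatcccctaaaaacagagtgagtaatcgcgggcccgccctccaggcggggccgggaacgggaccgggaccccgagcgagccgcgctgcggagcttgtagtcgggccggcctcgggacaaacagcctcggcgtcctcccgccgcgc
In this Nfkb2 window matches began 39, 38 and 11 bases upstream of the start site, the first 2 overlapping. In Nfkbia a match began 29 bases upstream, in Tnfaip3 matches began 125 and 12 bases upstream, and in Bcl3 a match began at base 3 of the transcript. Rel held overlapping matches 92 and 91 bases upstream and Nfkbie 1 match 106 bases upstream. Rela, the constitutively made subunit, held none in this window, and the second Tnfaip3 window held none. A match describes letters only, and binding was not measured.

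All 10 genes were higher with the Wnt1 plasmid. The edgeR test called 10 higher and 0 lower, beside the 22.4% and 18.7% of all tested genes, and the lowest Wnt1 library lay above the highest pcDNA3 library for each of the 10, which was the case for 28.2% of all tested genes. The median log2 fold change was 1.75 over the 10 genes, 1.36 over the 5 factors and 2.22 over the 5 inhibitors. A rise of at least 2-fold was fitted for 7 of the 10 genes and for 16.7% of all tested genes. The largest fitted rises were those of Nfkbiz, Bcl3 and Nfkbie, and the smallest was that of Rela. In bulk kidney tissue, more cells of a kind that makes a transcript and more transcript per cell cannot be told apart.

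**Figure D1:**
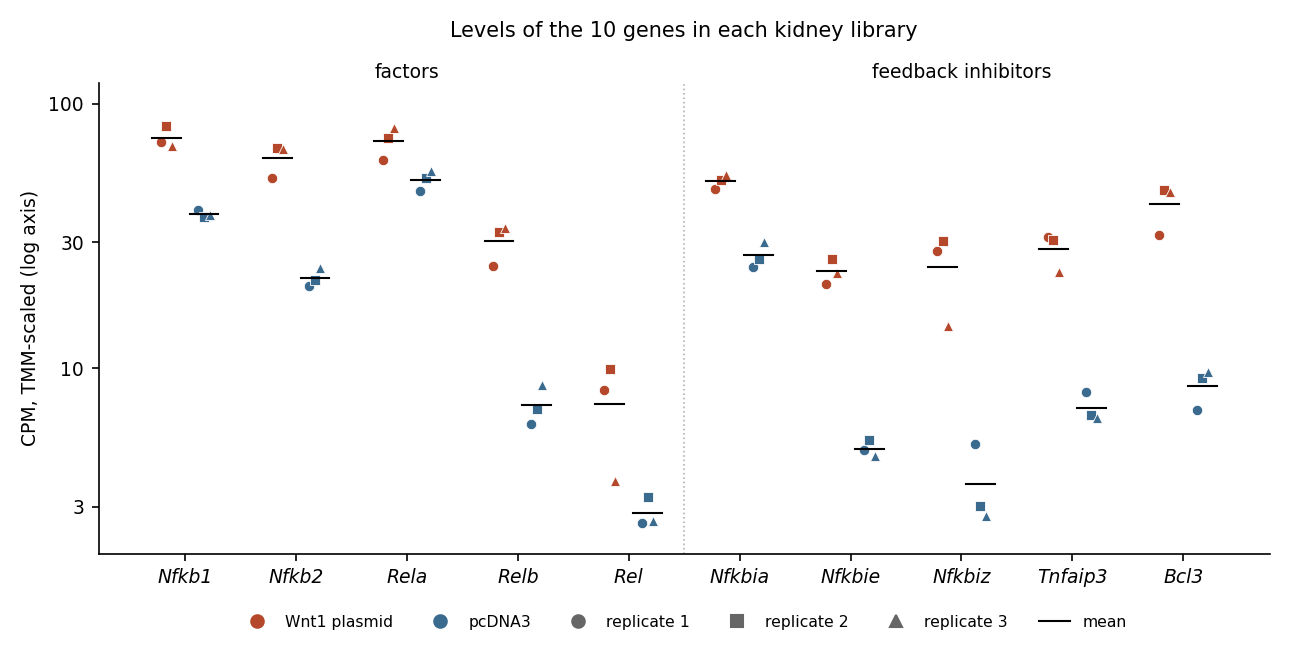
TMM-scaled CPM on a log axis for each of the 10 genes, with a point for each library (Wnt1 left, pcDNA3 right, shapes for replicates 1 to 3) and a bar for the mean of 3. No gene's groups overlap. The Wnt1 replicate 3 triangle lies below the other Wnt1 points for Rel (3.76 CPM), Nfkbiz (14.5 CPM), Tnfaip3 (23.1 CPM) and, narrowly, Nfkb1 (69.1 CPM).

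Among the factors, Rela changed least. Rela (ENSMUSG00000024927; GRCm38 chromosome 19, 5637483 to 5648130) encodes the main transactivating subunit of the canonical arm. It stood at 61.2, 74.3 and 80.5 CPM in Wnt1 replicates 1, 2 and 3, against 46.6, 52.5 and 55.6 CPM in pcDNA3 replicates 1, 2 and 3. The groups were close, with the lowest Wnt1 library not far above the highest pcDNA3 library. The log2 fold change was 0.48 ± 0.15 (SE; edgeR adjusted p = 0.0317). The call was lost when pcDNA3 replicate 1, pcDNA3 replicate 2 or Wnt1 replicate 2 was left out (adjusted p = 0.0639, 0.0569 and 0.0864, at log2 fold changes of 0.47, 0.55 and 0.46).

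Nfkb1 (ENSMUSG00000028163; chromosome 3, 135584655 to 135691547) encodes the p105 precursor, which gives rise to the p50 subunit. Its levels were 71.7, 82.1 and 69.1 CPM with Wnt1, against 39.7, 37.3 and 37.8 CPM with pcDNA3, with both groups tight. The log2 fold change was 0.96 ± 0.13 (adjusted p = 0.000706). Nfkb2 (ENSMUSG00000025225; chromosome 19, 46304320 to 46312385), the gene for the p100 precursor of the noncanonical arm, had 52.5, 67.9 and 67.1 CPM with Wnt1, against 20.5, 21.6 and 23.9 CPM with pcDNA3. Every Wnt1 library was more than double any pcDNA3 library, and the log2 fold change was 1.51 ± 0.15 (adjusted p = 0.000215). Nfkb2 was the only one of the 10 genes with expected counts that were not whole, in 5 libraries, and it overlaps the opposite-strand gene Psd by 299 bases, with Psd at 3.19 ± 1.12 CPM with Wnt1 and 1.82 ± 0.27 CPM with pcDNA3 (SD, n = 3 each).

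Relb, the partner of the processed Nfkb2 product, had the largest rise of the 5 factors. This gene (ENSMUSG00000002983; chromosome 7, 19606217 to 19629438) stood at 24.4, 32.9 and 33.9 CPM in the Wnt1 libraries, against 6.16, 7.04 and 8.67 CPM in the pcDNA3 libraries. Its log2 fold change was 2.06 ± 0.20 (adjusted p = 0.000189), larger than that of 93.5% of tested genes. Rel (ENSMUSG00000020275; chromosome 11, 23736847 to 23770970) encodes c-Rel, a factor made mostly by lymphoid and myeloid cells, and was the least abundant of the 10. It had 8.27, 9.98 and 3.76 CPM with Wnt1, against 2.62, 3.28 and 2.65 CPM with pcDNA3. Wnt1 replicate 3 lay near the highest pcDNA3 library, well below the other Wnt1 libraries. The log2 fold change was 1.36 ± 0.36 (adjusted p = 0.0167), and 1.67 without Wnt1 replicate 3 (adjusted p = 0.000542).

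The call for Rel was lost when any 1 of the other 5 libraries was left out, with adjusted p between 0.0568 and 0.0776 and log2 fold changes between 1.08 and 1.56. It held with both libraries numbered 3 left out (1.62, adjusted p = 0.000306). On log2(FPKM + 1) with a minimum of 1 FPKM in 3 libraries Rel was not tested, and with no minimum its change on that scale was 0.66.

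The inhibitors that are degraded to release NF-kappaB differed in the size of their rise. Nfkbia (ENSMUSG00000021025; chromosome 12, 55489410 to 55492647) encodes IkappaB alpha, the rapid feedback inhibitor of Rela dimers. It had 47.7, 51.6 and 53.6 CPM with Wnt1, against 24.2, 25.9 and 29.99 CPM with pcDNA3, a log2 fold change of 0.93 ± 0.14 (adjusted p = 0.00115). Nfkbie (ENSMUSG00000023947; chromosome 17, 45555703 to 45563169), the gene for IkappaB epsilon, a slower inhibitor, had 20.9, 26.0 and 23.0 CPM with Wnt1, against 4.92, 5.36 and 4.66 CPM with pcDNA3. Both groups of Nfkbie were tight and far apart, and its log2 fold change of 2.22 ± 0.16 had the smallest adjusted p of the 10 genes, 6.42e-05.

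Nfkbiz and Bcl3 encode nuclear IkappaB proteins, which bind DNA-bound dimers and can raise as well as lower transcription, and both transcripts rose. Nfkbiz (ENSMUSG00000035356; chromosome 16, 55811375 to 55838899) encodes IkappaB zeta. It had 27.8, 30.2 and 14.5 CPM with Wnt1, against 5.20, 3.01 and 2.78 CPM with pcDNA3. The spread was wide in both groups, with Wnt1 replicate 3 low and pcDNA3 replicate 1 high, but the groups stayed apart. Its log2 fold change was 2.72 ± 0.36 (adjusted p = 0.000841), 2.98 without Wnt1 replicate 3 and 3.14 without pcDNA3 replicate 1. Bcl3 (ENSMUSG00000053175; chromosome 7, 19808462 to 19822770), a partner of p50 and p52 homodimers, had 31.9, 47.1 and 46.4 CPM with Wnt1, against 6.94, 9.22 and 9.68 CPM with pcDNA3. Its log2 fold change was 2.28 ± 0.21 (adjusted p = 0.000161). Bcl3 also overlaps 2 antisense genes that are not in the table, and the sources used here do not give whether counting used strand. Nfkb1 overlaps Gm43430 on its own strand by 3897 bases, and Nfkb2 overlaps AC114539.1 on the opposite strand by 1292 bases. Neither of these is in the table.

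Tnfaip3 (ENSMUSG00000019850; chromosome 10, 19000910 to 19015657) encodes a ubiquitin-editing enzyme that stops signalling upstream of the IKK complex. It had 31.4, 30.6 and 23.1 CPM with Wnt1, against 8.18, 6.65 and 6.48 CPM with pcDNA3. The lowest Wnt1 library was still well above every pcDNA3 library, and the log2 fold change was 1.997 ± 0.18 (adjusted p = 0.000156).

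The size of the changes depended on the scaling of the libraries, their direction did not. With library totals in place of TMM factors, 44.0% of all tested genes were called higher and the median log2 fold change of all genes moved to 0.47. All 10 genes were then called higher as well, with log2 fold changes from 0.90 for Rela to 3.15 for Nfkbiz.

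**Figure D2:**
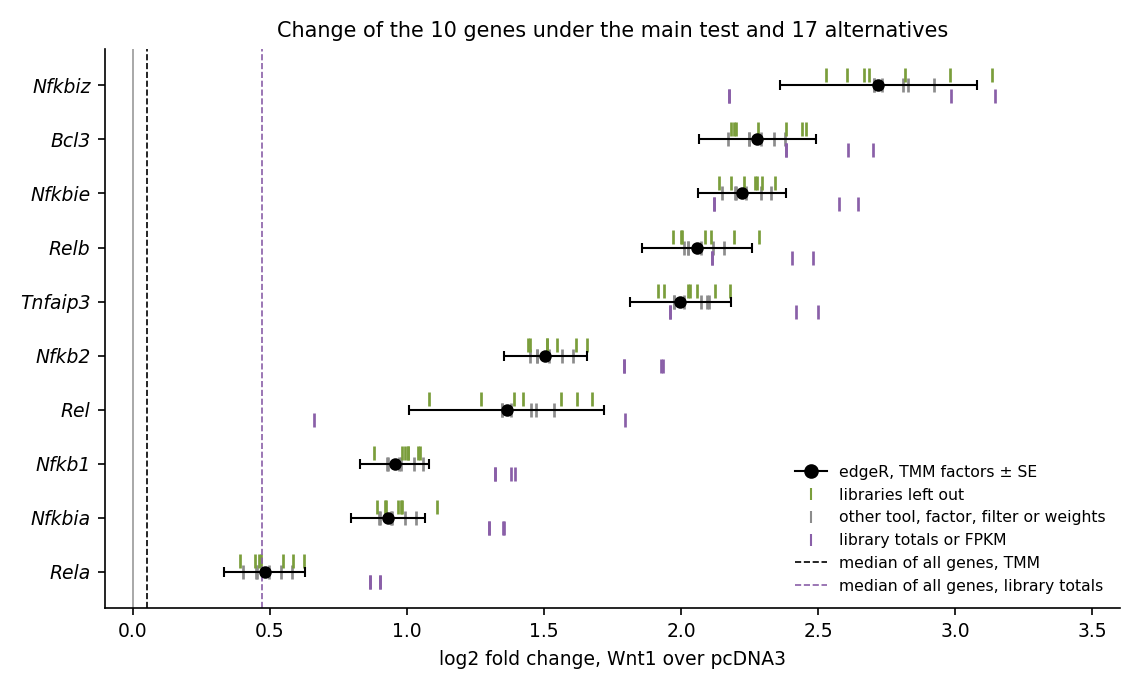
Log2 fold change, Wnt1 over pcDNA3, of each gene in the edgeR fit (black points ± SE) and in the 17 alternatives (ticks), ordered by size, with dashed lines at the median of all tested genes under TMM factors (0.05) and library totals (0.47). Every tick lies above 0, from 0.39 for Rela to 3.15 for Nfkbiz.

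Levels can be compared between genes on the FPKM scale, which divides by transcript length. With Wnt1 the order of mean FPKM was Nfkbia (37.4 ± 2.09), Rela (31.2 ± 4.32), Nfkb1 (27.5 ± 3.76), Bcl3 (26.7 ± 5.57), Nfkb2 (23.4 ± 3.295), Relb (16.6 ± 2.70), Nfkbie (11.1 ± 1.47), Tnfaip3 (8.35 ± 1.26), Nfkbiz (7.74 ± 2.90) and Rel (1.15 ± 0.53; SD, n = 3). With pcDNA3 it was Rela (16.6 ± 1.3003), Nfkbia (14.6 ± 1.36), Nfkb1 (10.3 ± 0.60), Nfkb2 (6.02 ± 0.39), Bcl3 (4.26 ± 0.57), Relb (3.06 ± 0.57), Nfkbie (1.77 ± 0.14), Tnfaip3 (1.39 ± 0.21), Nfkbiz (0.87 ± 0.33) and Rel (0.33 ± 0.04; SD, n = 3). Neighbours whose libraries overlapped with Wnt1 were Rela and Nfkb1, Nfkb1 and Bcl3, Bcl3 and Nfkb2, and Tnfaip3 and Nfkbiz. With pcDNA3 they were Rela and Nfkbia, Bcl3 and Relb, Nfkbie and Tnfaip3, and Tnfaip3 and Nfkbiz. The order was thus much the same in both groups, with Nfkbia above Rela in every Wnt1 library and below it in every pcDNA3 library.

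Ratios of FPKM within a library do not depend on how libraries are scaled, and 5 were compared. With 3 against 3 libraries the smallest p that an exact permutation test, two-sided, can give is 0.1. Each of the 5 reached 0.1 (also 0.1 after Benjamini-Hochberg adjustment over the 5), so none could pass 0.05, and in each the groups did not overlap. Relb over Rela was 0.516, 0.547 and 0.531 in Wnt1 replicates 1, 2 and 3, against 0.177, 0.164 and 0.212 in pcDNA3 replicates 1, 2 and 3. This was the widest separation between 2 factors, a log2 difference of 1.54 ± 0.11 (SE).

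The precursor genes shifted in the same direction but less. Nfkb2 over Nfkb1 was 0.756, 0.825 and 0.988 with Wnt1, against 0.521, 0.571 and 0.663 with pcDNA3, a log2 difference of 0.55 ± 0.15. Nfkbia over Rela was 1.34, 1.16 and 1.13 with Wnt1, against 0.895, 0.831 and 0.922 with pcDNA3, a log2 difference of 0.45 ± 0.09. Summed over the 5 inhibitors and the 5 factors, inhibitors over factors was 0.958, 0.913 and 0.877 with Wnt1, against 0.627, 0.622 and 0.643 with pcDNA3. The libraries of each group were close to each other, and the log2 difference was 0.54 ± 0.04. The inhibitor sum includes Nfkbiz and Bcl3, whose products can also raise transcription and which had the largest fitted rises. Mean FPKM of Bcl3 was 26.7 with Wnt1 and 4.26 with pcDNA3, and that of Nfkbiz 7.74 and 0.87. The ratio without these genes was not computed, so it is no measure of inhibition as such.

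**Figure D3:**
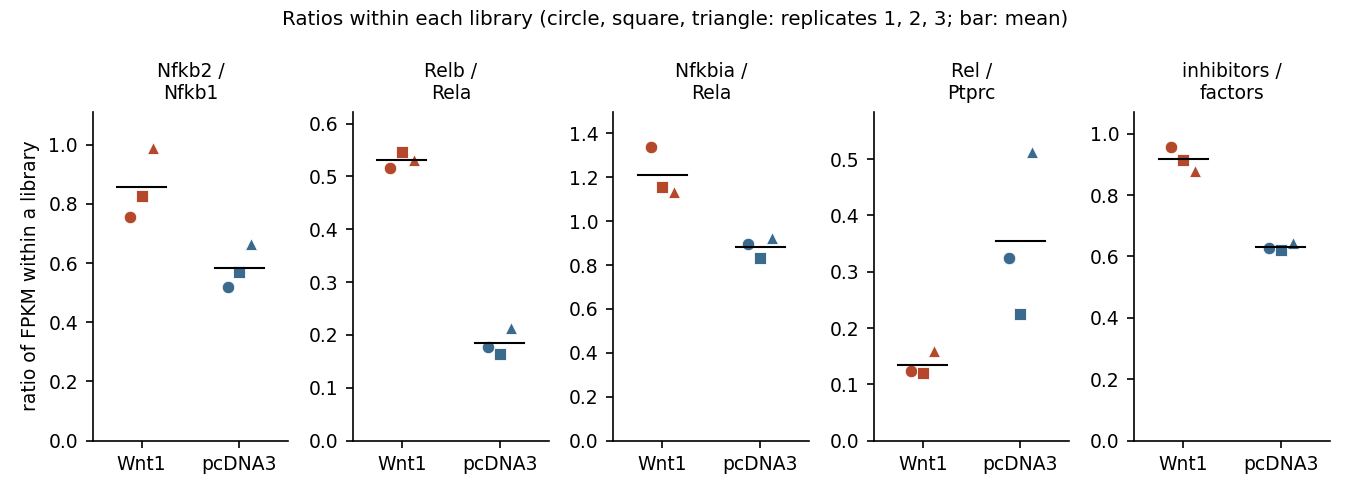
Ratio of FPKM between genes within each library (linear axes from 0), Wnt1 left and pcDNA3 right in each panel, shapes for replicates 1 to 3 and bars for the mean of 3. Relb over Rela averages 0.531 with Wnt1 and 0.184 with pcDNA3, and Rel over Ptprc is the 1 ratio that is lower with Wnt1 (0.135 with Wnt1 and 0.354 with pcDNA3).

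Leukocyte transcripts moved with these genes. Ptprc, the common leukocyte antigen CD45, had 40.1, 48.9 and 14.8 CPM with Wnt1, against 5.06, 8.06 and 3.20 CPM with pcDNA3, a log2 fold change of 2.67 ± 0.50 (adjusted p = 0.00412). Like Rel, it was lowest in replicate 3 of the Wnt1 group. Rel over Ptprc was 0.124, 0.120 and 0.160 with Wnt1, against 0.324, 0.225 and 0.512 with pcDNA3, a log2 difference of -1.32 ± 0.37, and -1.02 without pcDNA3 replicate 3. The transcript of this leukocyte-enriched factor was therefore lower per unit of Ptprc with Wnt1, in 3 of 3 libraries. Over 6 pan-leukocyte markers, Ptprc among them, log2 fold changes lay between 1.36 and 2.76, against 1.36 for Rel. The ratio thus depends on the marker chosen, and other markers were not compared in this way.

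Beside the marker counts that follow stand the 22.4% of all tested genes called higher and the 18.7% called lower. Of the pan-leukocyte markers, 6 of 6 were called higher, with a summed level of 329.6 to 399.5 CPM with Wnt1 and 88.6 to 104.4 CPM with pcDNA3. Macrophage markers gave 14 higher and 1 lower of 15 (summed level 1961 to 2365 CPM with Wnt1 and 298.9 to 340.3 CPM with pcDNA3), the lower one being Mertk, which was not called lower with library totals. T and NK cell markers gave 14 of 14 higher (34.7 to 49.5 CPM with Wnt1 and 12.6 to 15.5 CPM with pcDNA3) and dendritic cell markers 7 of 8 (46.7 to 58.8 CPM with Wnt1 and 19.3 to 21.2 CPM with pcDNA3). B and plasma cell markers gave 4 higher of 5 tested (44.8 to 56.9 CPM with Wnt1 and 9.98 to 13.01 CPM with pcDNA3). Neutrophil markers gave 4 higher of 5 tested (14.6 to 20.3 CPM with Wnt1 and 1.73 to 2.30 CPM with pcDNA3). Of these 4, 3 reached the filter's minimum (10 counts at the median library size) in no pcDNA3 library, so that they could be tested only because they were high with Wnt1. The same was so for 2 T and NK cell markers and 1 dendritic cell marker. The filter asked for this minimum in 3 libraries. In all pcDNA3 libraries it was reached by 9 of 14 T and NK cell markers and 6 of 8 dendritic cell markers. For B and plasma cell markers this was 2 of 5 tested, and for neutrophil markers 2 of 5. The other tested markers of these lists passed only with the help of Wnt1 libraries, so their calls are no support for the counts. The neutrophil markers Camp and Ngp were not tested. Both were at 0 in pcDNA3 libraries, and 1 of them in every library. Fibroblast and mural cell markers gave 9 of 10 higher (2157 to 3532 CPM with Wnt1 and 546.4 to 701.1 CPM with pcDNA3). Proximal tubule markers gave 13 of 14 lower, distal nephron and collecting duct markers 7 of 10 lower (2914 to 4599 CPM with Wnt1 and 8730 to 9466 CPM with pcDNA3), endothelial markers 6 of 9 lower (525.5 to 731.0 CPM with Wnt1 and 844.8 to 1033 CPM with pcDNA3) and podocyte markers 3 of 6 lower (498.8 to 604.0 CPM with Wnt1 and 644.4 to 710.9 CPM with pcDNA3). With library totals, distal nephron markers gave 1 higher and 5 lower, endothelial markers 0 and 1, and podocyte markers 2 and 1. Of all 14432 tested genes, that setting called 6348 higher (44.0%) and 1288 lower. The part of these cell types in the changes of the 10 genes was not tested.

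The rest of the pathway was read from lists of its steps. Ligands and receptors that feed NF-kappaB were mostly higher: of 7 ligands tested, 5 were called higher and 0 lower (median log2 fold change 2.33), and of 11 receptors tested, 8 and 0 (median 1.18), beside 22.4% and 18.7% of all tested genes. Tnf, the prototype ligand, had 53, 60 and 40 expected counts with Wnt1, against 2 in each pcDNA3 library. It passed the filter through the Wnt1 libraries alone, so its call is no support for the count. The same limit holds for Tnfsf14, which had 2, 13 and 5 with pcDNA3 and passed only with the help of Wnt1 libraries. Its call (edgeR adjusted p = 0.0404) held in 8 of the 14 alternatives that tested it. Il1b, the inflammasome-processed ligand of the interleukin-1 receptor, changed by 2.54 ± 0.32. Among ligands of the noncanonical arm, Tnfsf13b (BAFF) rose by 3.05 ± 0.22 and lymphotoxin beta, Ltb, by 2.33 ± 0.24, Tnfsf12 (TWEAK) was not called (0.27 ± 0.13, adjusted p = 0.145), and Tnfsf11 and Cd40lg were not tested. Among receptors, Tlr2, which senses bacterial lipoproteins and products of damage, changed by 2.93 ± 0.20, Tnfrsf12a, the receptor for TWEAK, by 2.40 ± 0.21, Tnfrsf1b, a TNF receptor common on leukocytes, by 2.09 ± 0.18, and Il1r1, the interleukin-1 receptor, by 1.18 ± 0.14. Ltbr, the lymphotoxin receptor, had a log2 fold change of -0.03 ± 0.15 and was not called. Of 17 alternatives, 4 called Tnfsf12 higher and 3 called Ltbr higher.

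Kinases and adaptors between receptor and factor moved less. Of 16 kinases and their partners, 4 were called higher and 1 lower (median 0.11), a share higher that is near the 22.4% of all tested genes. Under library totals these counts were 8 and 0, beside 44.0% of all tested genes called higher. With both libraries numbered 3 left out they were 8 and 4, beside 4664 higher and 4432 lower of all 14563 genes tested. The core IKK genes were among those not called: Ikbkb had a log2 fold change of 0.30 ± 0.12 (adjusted p = 0.0757), Ikbkg -0.04 ± 0.12 (adjusted p = 0.807) and Chuk -0.60 ± 0.32 (adjusted p = 0.171). These depended on the setting: of 17 alternatives, 9 called Ikbkb higher and 4 called Ikbkg higher. Chuk lay between -0.87 and -0.18 and was called lower in at least 1. The inducible IKK relative Ikbke rose by 2.11 ± 0.21 (adjusted p = 0.000216) and Map3k14, the kinase of the noncanonical arm, by 1.28 ± 0.14 (adjusted p = 0.000367). Irak4, a kinase of the Toll-like and interleukin-1 receptor complex, rose by 0.80 ± 0.16, while its relative Irak2 fell (-0.66 ± 0.15, adjusted p = 0.00879), a call lost with library totals (-0.25, adjusted p = 0.159). Of 18 adaptors, 9 were called higher and 0 lower (median 0.37), beside 22.4% and 18.7% of all tested genes. The counts were 13 and 0 under library totals and 10 and 3 with both libraries numbered 3 left out. The values of all tested genes in these settings are those given above. Among those called were Traf1 (2.14 ± 0.19) and Birc3 (2.24 ± 0.21), which act at TNF receptors, and Myd88 (0.85 ± 0.16), the adaptor of Toll-like and interleukin-1 receptors.

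Beyond the 5 feedback inhibitors, other brakes on the pathway did not move as a block. Of 13 tested, 4 were called higher and 1 lower (median -0.04), beside 22.4% and 18.7% of all tested genes. Under library totals the counts were 6 and 0, a share higher that is near the 44.0% of all tested genes. Irak3, which blocks Toll-like receptor signalling, rose by 1.67 ± 0.19, Zc3h12a, an RNase that degrades cytokine messages, by 1.34 ± 0.17, while Tnip3, a partner of the Tnfaip3 protein, was called higher from 27, 44 and 19 expected counts with Wnt1, against 3, 2 and 2 with pcDNA3, and like Tnf it passed the filter through the Wnt1 libraries alone. Rnf11 fell (-0.73 ± 0.12, adjusted p = 0.00239), and with library totals its log2 fold change was -0.31 and not called (adjusted p = 0.0706). Cyld, a deubiquitinase that acts at the same step as the Tnfaip3 product, had a log2 fold change of -0.26 ± 0.26 (adjusted p = 0.47). Of the other IkappaB genes, Nfkbid, another nuclear family member, rose, with 182, 114 and 117 expected counts with Wnt1 against 9, 12 and 13 with pcDNA3 (3.20 ± 0.28, adjusted p = 0.000133), while Nfkbib, which encodes IkappaB beta, was at -0.11 ± 0.15 (adjusted p = 0.593) and Nfkbil1 at 0.47 ± 0.17 (adjusted p = 0.0597). Nfkbil1 was called higher in 9 of 17 alternatives. Nfkbid, with 9 counts in pcDNA3 replicate 1, missed the filter's minimum there and passed only with the help of Wnt1 libraries.

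Known targets of NF-kappaB gave 19 higher and 2 lower of 24 tested (median 2.18), beside 22.4% and 18.7% of all tested genes. Of the 19, 3 passed the filter through the Wnt1 libraries alone. Its minimum was reached in all pcDNA3 libraries by 19 of the 24 tested targets. Ccl2 (14, 15 and 9 expected counts with pcDNA3) and Cxcl1 (3, 12 and 11) missed it in 1 pcDNA3 library each. They passed only with the help of Wnt1 libraries, so their calls too are no support for the count. Vcam1, an adhesion molecule for leukocytes, had 309.1, 389.9 and 219.8 CPM with Wnt1, against 11.6, 13.3 and 14.1 CPM with pcDNA3 (log2 fold change 4.56 ± 0.24, adjusted p = 2.68e-05). Lcn2, an iron-binding protein of injured tubules, rose by 6.22 ± 0.24 and Ccl2, a monocyte chemokine, by 4.21 ± 0.25. Bcl2a1b, a survival gene of a multi-copy family whose copies can share reads, was at 3.64 ± 0.20. Both lower targets, chosen for mention after their values were seen, were Sod2, the mitochondrial superoxide dismutase, at -1.20 ± 0.14 (adjusted p = 0.000471), and Plau, the plasminogen activator urokinase, at -0.51 ± 0.14 (adjusted p = 0.0184). The Plau call was lost with library totals, and its log2 fold change lay between -0.62 and -0.09 over the alternatives.

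**Figure D4:**
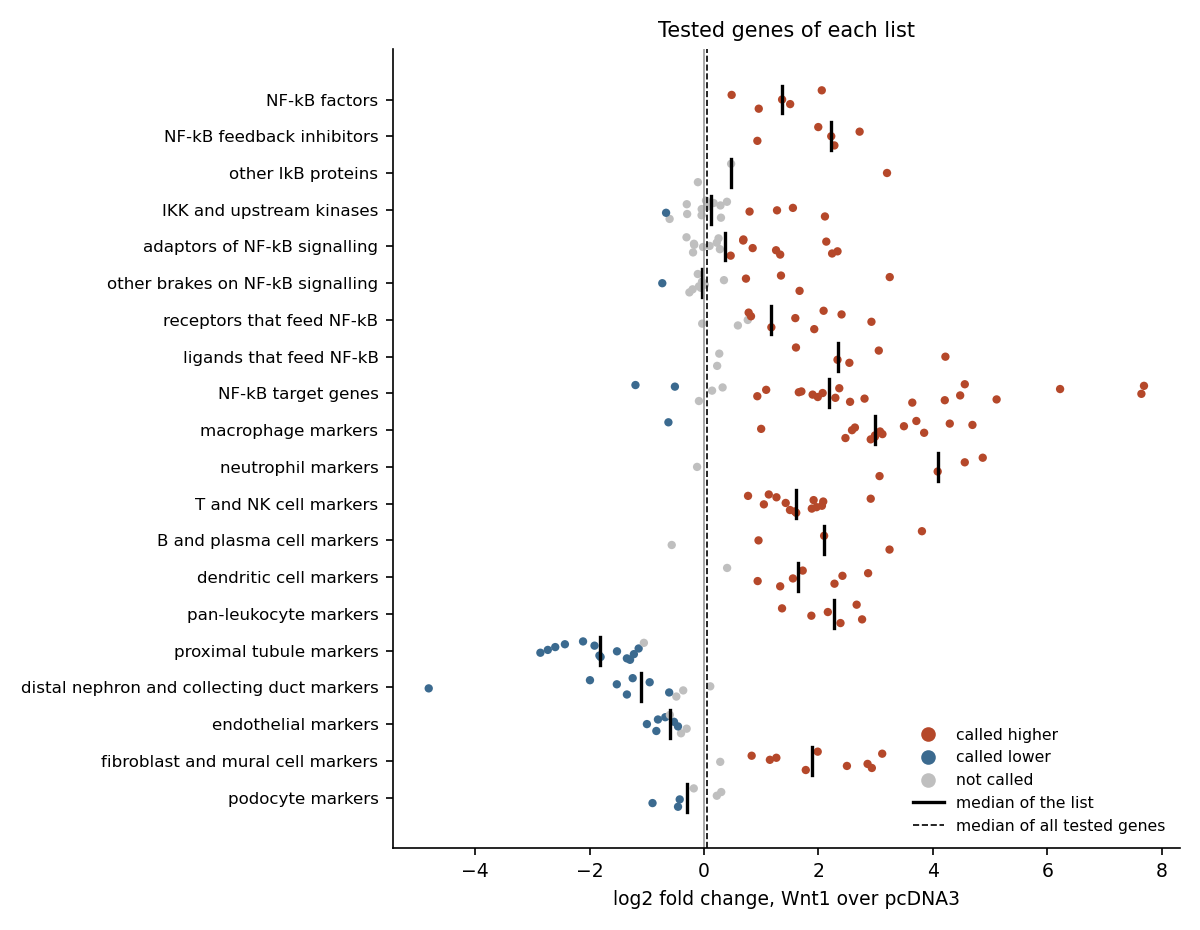
Log2 fold change, Wnt1 over pcDNA3, of every tested gene in each pathway and cell type list (points, coloured by the edgeR call), with the list median as a bar and the median of all tested genes (0.05) as a dashed line. All points of the factors and feedback inhibitors are called higher, while kinases (median 0.11) and other brakes (median -0.04) centre near the line.

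Genes other than the 10 with the most similar profile were found by Pearson correlation, over the 6 libraries, between log2(CPM + 0.5) and the mean standardised level of the 10 genes. Genes with a mean CPM under 1, and symbols of predicted genes or clones, were left out. The 5 nearest of 13155 compared were Smad1, Lif, Apbb1ip, Ifngr1 and Ncf1, each with r of 0.999 or more after rounding. The 6 points fall into the 2 groups, so this is a description of the group difference as much as of the libraries. Of the genes compared, 235 had an r above 0.99.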

How the data were processed

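The authors deposited, per the file headers, an expected count for each gene and library (an estimate, so not always whole) and an FPKM value (fragments scaled by transcript length and library size). Tools listed in the submitters' processing notes are RSEM, StringTie 1.3.1, HISAT2, Bowtie2 2.2.8 and fastp 0.18.0, with the build mm10; the sources used here give no roles, annotation release or use of strand. Of the expected counts 9.02% were not whole (tolerance 1e-06), and all were rounded. Counts were tested in R 4.3.3 with edgeR 4.0.16 (filterByExpr, TMM factors, robust quasi-likelihood test, two-sided, Benjamini-Hochberg adjustment over 14432 genes); the SE is the unshrunken coefficient over the root of the F statistic. The procedure was tested on simulated data. Few genes were changed there, in both directions, so the scaling of libraries with many changed genes was not checked. Alternatives used DESeq2 1.42.0, limma 3.58.1, other factors and filters, and fewer libraries. Coordinates come from GENCODE M21 on GRCm38, the assembly mm10 names.

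The members and lists were chosen with earlier results of these data known. Named from each list were up to 4 called genes with the smallest p, with some fixed genes; cell type markers the rule also took are given by count, and 1 gene it took is not reported here. Genes not called (Ltbr, Tnfsf12, the IKK genes, Cyld, Nfkbib, Nfkbil1) were added for their roles after their values were seen.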

Additional observations from a re-analysis of the deposited data

How the results depend on the processing

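Under 17 alternatives the 10 genes kept their direction in all 168 tests that could be made, and 160 of these stayed under the threshold. The 8 lost calls were those of Rela and Rel with 1 library left out, given above. The count of the 10 genes called higher was 8 to 10. Library totals gave 6348 genes higher and 1288 lower. On FPKM, limma gave 5144 and 1238 (pseudocount 1), 5139 and 1234 (pseudocount 0.1), and 5949 and 1273 with no minimum. Voom with quality weights gave 4430 lower, leaving out both libraries numbered 3 gave 4432 lower, and leaving out each library gave 1797 to 3977 lower; without Wnt1 replicate 3 the counts were 4165 higher and 3977 lower, and without pcDNA3 replicate 2 they were 2721 and 1797. The cause was not tested. The log2 difference of inhibitors over factors was 0.71 with expected counts, in which longer transcripts weigh more, against 0.54 with FPKM. No paired analysis was possible because replicate numbers follow record order and pair nothing. Of the 10 genes Rel, with 57 to 74 expected counts in pcDNA3 libraries, had the lowest depth.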

Other observations

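The table's family column places 10 genes in the Rel-homology family, the 5 NF-kappaB factors and 5 NFAT genes, whose products share the DNA-binding fold and answer to calcium signals or, for Nfat5, to tonicity. With Wnt1, 3 of the 5 NFAT genes were called higher and 0 lower by edgeR, beside 22.4% and 18.7% of all tested genes (median log2 fold change 0.70, beside 1.36 for the 5 NF-kappaB factors). Nfatc4 averaged 9.79 ± 3.02 CPM with Wnt1 and 2.95 ± 0.54 CPM with pcDNA3 (log2 fold change 1.73 ± 0.27, adjusted p = 0.00162), Nfatc2 21.8 ± 1.71 CPM with Wnt1 and 11.5 ± 1.27 CPM with pcDNA3 (0.92 ± 0.15, adjusted p = 0.00205), and Nfat5 124.9 ± 11.97 CPM with Wnt1 and 76.7 ± 10.3 CPM with pcDNA3 (0.70 ± 0.15, adjusted p = 0.00626; SD, n = 3 each). Nfatc1 (0.36 ± 0.16, adjusted p = 0.116) and Nfatc3 (-0.08 ± 0.16, adjusted p = 0.745) were not called.

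Relb and Bcl3 lie on chromosome 7 with 179 kb between them. Of the 10 protein-coding genes annotated between them, 8 were tested, of which 4 were called higher and 1 lower, beside 22.4% and 18.7% of all tested genes. Their log2 fold changes lay between -0.78 and 5.58 (median 0.47). The upper end was Apoc2, with 83, 80 and 45 expected counts with Wnt1 against 0, 1 and 2 with pcDNA3. It passed the filter through the Wnt1 libraries alone, so its call is no support for the count. The next largest, Apoe at 2.59 ± 0.17, also lay above Relb and Bcl3. Among 224 genes that the table's KEGG terms place in NF-kappa B signalling, without the members, 114 were at 0 in pcDNA3 libraries and 82 in all libraries. Of the 224, 97 were tested, of which 53 were called higher and 4 lower (median 0.69), again beside 22.4% and 18.7%. The 53 include Tnf and Cxcl2, which passed the filter through the Wnt1 libraries alone and are no support for the count. The same limit holds for Cxcl1 and Tnfsf14, which passed only with the help of Wnt1 libraries. Not every other gene of this list was checked for this. These groupings were chosen after the data were seen.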
